A study of Rattus norvegicus with 12 samples.

Results

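High cyclic shortening was compared with low cyclic shortening in heart muscle held at high mean stretch. The comparison takes the 3 muscles labelled high stretch high shortening and the 3 labelled high stretch low shortening, 6 of the 12 samples in the series, over all 31042 probe sets that are not controls. Each sample was a right ventricular papillary muscle from a different adult male LBNF1 rat, cultured for 12 h at 37 °C in supplemented Medium 199 and paced at 1 Hz. The labels give ages of 72 to 85 and weights of 267 to 318 over the series, both without units. Mean stretch was set to 16% on both sides, and cyclic shortening to 16% in the high shortening muscles and 4% in the low shortening muscles. The other 6 muscles, 3 with low stretch and high shortening and 3 with low stretch and low shortening, were held at 4% mean stretch and enter the fit as further groups. The muscles were isolated from the circulation, and the RNA is that of the whole muscle, so fewer cells of a type and less RNA per cell cannot be told apart.

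A papillary muscle stretches as the ventricle fills and shortens as it ejects. Titin, integrins at the costameres and stretch-gated calcium entry are among the known sensors of these loads, and immediate early genes, heat shock proteins, natriuretic peptides and secreted matrix regulators are among the known transcript responses. At a given mean stretch, the amount of shortening sets how far muscle length swings in each cycle.

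The tissue label was checked against marker genes. All 17 cardiomyocyte markers with a gene on the array, such as Myh6, the fast myosin heavy chain of rodent heart, were above log2(50) on at least 2 arrays of 1 group, which is called measured here. Their mean log2 intensity per array was 13.28 to 13.34 at high shortening and 13.19 to 13.30 at low shortening. The mean level of the endothelial list was 7.45 to 7.74 against 7.39 to 7.62, that of the fibroblast list 7.43 to 7.87 against 7.48 to 7.73, that of the macrophage list 6.73 to 6.96 against 6.67 to 6.83, and that of the smooth muscle and pericyte list 6.56 to 6.65 against 6.62 to 6.73. Not measured were Col1a1, Tcf21, Thy1, Mfap4 and Pi16 of the 16 fibroblast markers, Cd163, Csf1r, C1qb, Aif1 and Itgam of the 17 macrophage markers, and 15 of the 18 lymphocyte and mast cell markers.

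One property of the RNA moved with the groups. The control probe sets of Gapdh and Actb read both ends of their transcripts, and the excess of the 3' over the 5' signal, averaged over both and called the 3' to 5' index, is known to rise as RNA is less complete. The index was 2.56, 3.14 and 3.10 log2 at high shortening, against 3.09, 3.89 and 4.33 log2 at low shortening. Low shortening replicate 1 lay among the high shortening arrays, and replicates 2 and 3 lay above all of them. The means were 2.94 ± 0.32 and 3.77 ± 0.63 (SD, n = 3 each; exact permutation test, two-sided, p = 0.3, adjusted p = 0.375 over 5 quantities, smallest possible p 0.1). For Actb alone the groups did not overlap, with 3.25 to 3.41 log2 at high shortening and 3.42 to 4.82 log2 at low shortening (exact p = 0.1, adjusted p = 0.375), while for Gapdh they did. Of the other groups, the 3 low stretch high shortening arrays lay between 3.18 and 3.27, and the 3 low stretch low shortening arrays between 1.13 and 1.69. Age and weight, given without units, averaged 81.3 and 286.3 at high shortening and 78.0 and 274.0 at low shortening (exact p = 0.6 and 0.2). The part of the index in the results below was not tested. Of the 93 genes described here, 50 had a difference that moved by more than 1.5 times or changed sign with the index as a covariate, 34 of them to a value nearer to 0, and 21 did so without low shortening replicate 1. Such values are given beside the genes the results turn on. The slope of the index in the covariate fit comes from the spread within groups, which was widest among the low shortening arrays at high stretch.

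**Figure D1:**
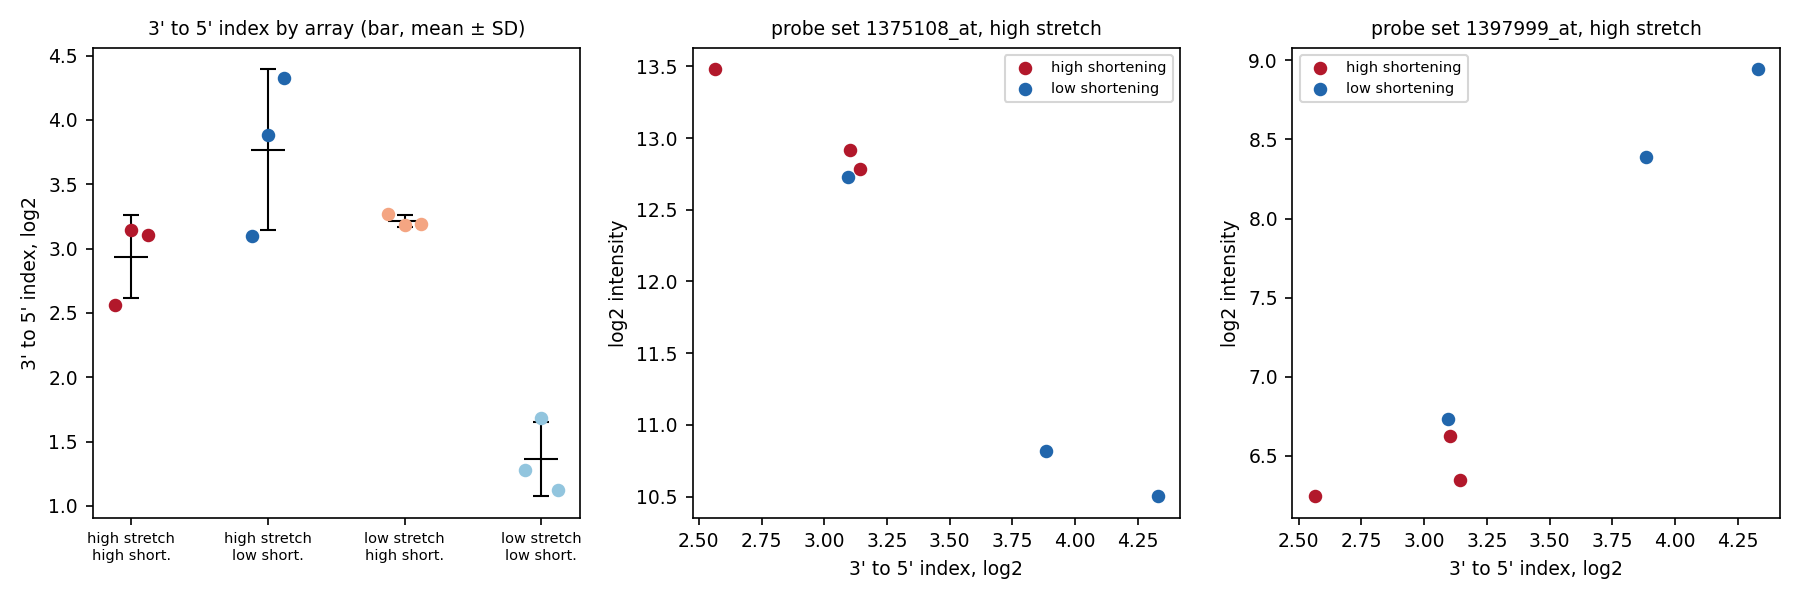
The left panel shows the 3' to 5' index in log2 for each array of the 4 groups, with mean ± SD. The other panels plot the log2 intensity of probe sets 1375108_at and 1397999_at against the index on the 6 high stretch arrays. Low shortening replicates 2 and 3, at 3.89 and 4.33, stand apart from the other 4 arrays in both.

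No probe set passed the test of shortening at high stretch. Limma, fitted with a mean per group over all 12 arrays, called 0 of 31042 probe sets at an adjusted p under 0.05 (0.0% of those tested), and the smallest adjusted p was 0.436. At an unadjusted p under 0.05 it counted 1463 probe sets (4.71%). That share is below the 0.05 that this threshold passes on average when no probe set differs. The Local Pooled Error test, a test of 2 groups that pools error among probe sets of like intensity, called 46 of the 16391 probe sets in the authors' filtered table, 10 higher and 36 lower at high shortening. Of those 46, 11 did not overlap between the groups, against 1350 of all 16391 probe sets in the filtered table. The 46 were called from differences on the same arrays, so these shares are not comparable.

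Most differences were small next to the error. The median absolute difference was 0.0999 log2 (1.07-fold) and the 99th percentile 0.62 log2 (1.54-fold). The median 95% interval reached 0.30 log2 (1.23-fold) to either side. For 24214 probe sets (78.0%) the whole interval lay within 1.5-fold in both directions, and for 29899 (96.3%) within 2-fold. By at least 1.5-fold, 72 probe sets were higher and 298 lower at high shortening, and by at least 2-fold 4 and 24. The excess of lower values turned round with the index as a covariate, when 536 were higher and 435 lower by at least 1.5-fold. More probe sets passed 1.5-fold both ways in that fit, but fewer had an unadjusted limma p under 0.05. These numbered 1398, against 1463 without the index, and 0 were called. The larger differences of the covariate fit thus came without more small p-values.

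The 3 arrays of high shortening all lay above the 3 of low shortening for 1458 probe sets (4.7%) and all below them for 1310 (4.22%). With 1 probe set per gene, the brightest with a single symbol, 688 of 14217 genes were higher without overlap (4.84%) and 509 lower (3.58%). Without any effect of shortening, the arrays separate fully in either direction with a probability of 0.1, the smallest possible p of the exact test. The 2768 separated probe sets of 31042 and the 1197 separated genes of 14217 were smaller shares than that. Non-overlap served to choose and describe genes, and does not by itself show an effect of shortening. The gap between the groups was narrow, with a median of 0.0457 log2 among the higher and 0.0496 log2 among the lower probe sets. Non-overlap together with at least 1.5-fold held for 27 higher and 126 lower probe sets. No symbol was given for 65.1% of those 126 and 40.7% of those 27, against 31.5% of all probe sets.

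**Figure D2:**
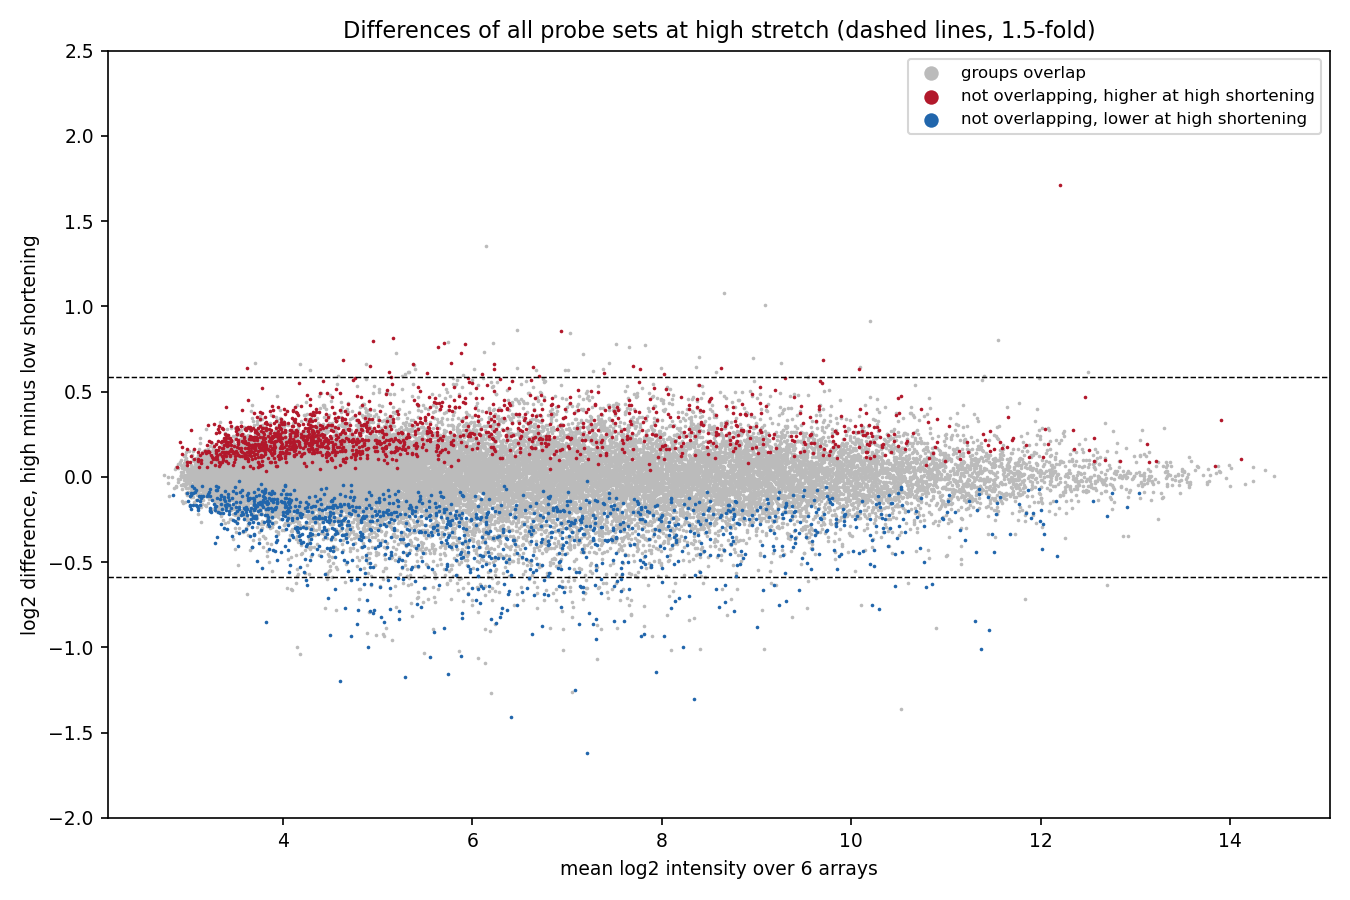
Each point is 1 of 31042 probe sets, with its mean log2 intensity over the 6 high stretch arrays on the horizontal axis and its log2 difference, high minus low shortening, on the vertical axis. Red and blue mark the 1458 higher and 1310 lower probe sets whose arrays do not overlap, and dashed lines mark 1.5-fold, past which 72 probe sets lie above and 298 below.

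Among measured genes whose groups did not overlap, the most negative difference was that of Irs2, an adaptor that carries the insulin and IGF receptor signal. Irs2 had 7.29, 7.32 and 7.50 log2 at high shortening, against 8.05, 8.04 and 9.46 log2 at low shortening, a difference of -1.15 (95% interval -1.85 to -0.44). Low shortening replicate 3 was the highest array, and the difference was -0.68 without it and -0.71 with the index as a covariate. Hspa1a, the inducible Hsp70 chaperone, had 10.58, 11.01 and 11.003 log2 at high shortening, against 12.07, 11.63 and 11.92 log2 at low shortening, a difference of -1.01 (95% interval -1.82 to -0.20). Its groups were 0.62 log2 apart at the nearest arrays, and the difference was -1.20 with the index and -0.91 without low shortening replicate 1. Hspa1a shares nearly all of its sequence with Hspa1b, so the probe set may read both.

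Rbms3, an RNA-binding protein, had 7.30, 7.28 and 7.38 log2 at high shortening, against 7.58, 8.63 and 8.54 log2 at low shortening. The high values were those of low shortening replicates 2 and 3, the arrays with the highest index; the difference was -0.93, and -0.39 with the index. Ephb3, a receptor for ephrin-B ligands, had 6.15, 5.90 and 5.87 log2 at high shortening, against 7.44, 6.51 and 6.33 log2 at low shortening. Here low shortening replicate 1 was the highest array; the difference was -0.78, -1.41 with the index and -0.44 without that replicate. Tent5a, a cytoplasmic poly(A) polymerase, had 9.51, 9.69 and 10.51 log2 at high shortening, against 10.62, 10.67 and 10.74 log2 at low shortening, and Glcci1, named for its induction by glucocorticoid, had 5.61, 6.12 and 6.06 log2 against 6.45, 7.05 and 6.61 log2. The remaining 6 of the 12 lowest among measured genes without overlap were Piga (-0.74, and -0.42 with the index), which starts GPI anchor synthesis, Fam110b (-0.69), Itga9 (-0.69, and -0.44 with the index), an integrin alpha subunit, C8h11orf52 (-0.69), Zmym6 (-0.68) and Kif3a (-0.67), a kinesin motor of cilia. A second probe set of Itga9 went the other way, as did 1 of the 3 of Tent5a.

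The most positive differences among measured genes without overlap were smaller. Trmt12, a transfer RNA modifying enzyme, had 5.90, 6.16 and 6.24 log2 at high shortening, against 5.90, 5.20 and 4.83 log2 at low shortening, a difference of 0.79 (95% interval 0.26 to 1.32), and 0.50 with the index. Low shortening replicate 1 nearly touched the high shortening arrays. Apc2, a relative of the APC regulator of Wnt signalling, had 6.24, 6.40 and 6.29 log2 at high shortening, against 6.20, 5.91 and 4.48 log2 at low shortening. Its difference of 0.78 rested on low shortening replicate 3, and was 0.25 without it and 0.13 with the index. Zfp3, a zinc finger protein, had 5.57, 6.50 and 5.98 log2 at high shortening, against 5.40, 5.003 and 5.37 log2 at low shortening. The next were Tnfaip6 (0.68), Skida1 (0.66, and 0.24 with the index), Zfp282 (0.65), Retreg3 (0.65), Cflar (0.64), Ccnj (0.63), Lcn2 (0.63), Itgbl1 (0.58) and Fbxo21 (0.58). A second probe set of Retreg3 went the other way.

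**Figure D3:**
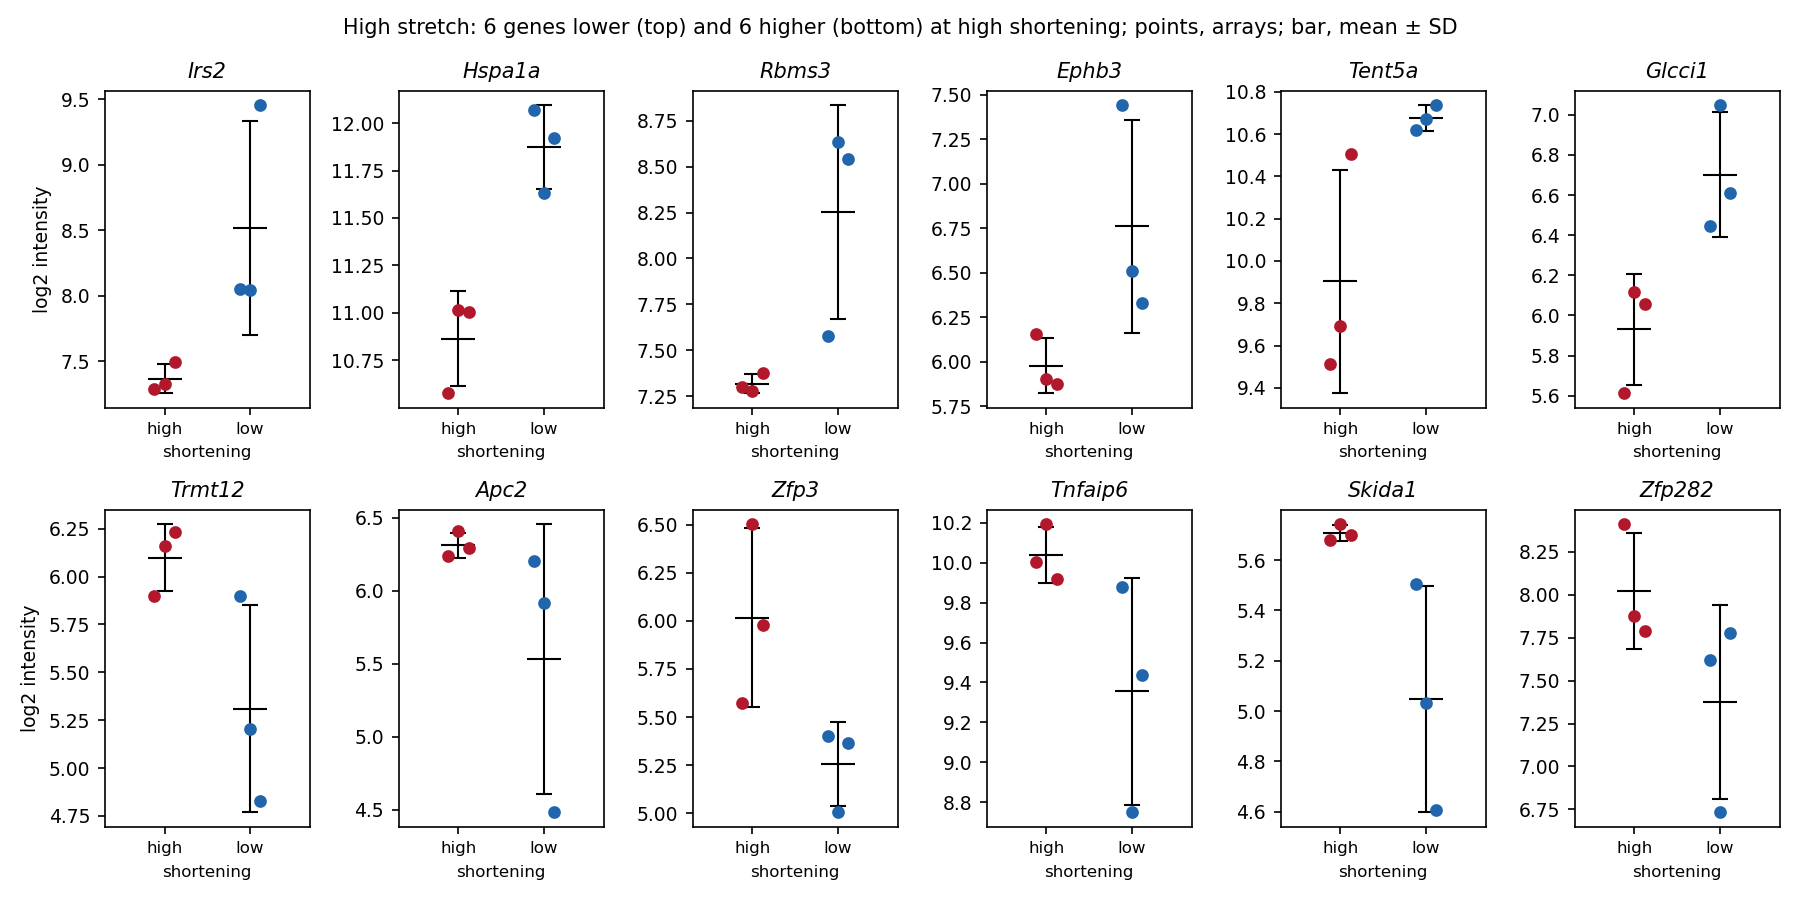
Log2 intensity of 12 genes on the 6 high stretch arrays, high shortening (red) left of low shortening (blue), each panel with its own scale, bars showing mean ± SD of 3 arrays. Among measured genes whose groups do not overlap, the upper row holds the 6 most negative differences, from Irs2 (-1.15) to Glcci1 (-0.77), and the lower row the 6 most positive, from Trmt12 (0.79) to Zfp282 (0.65).

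A second set was picked for the smallest p-values, which favours tight replicates. Cflar, the c-FLIP inhibitor of caspase 8, had 8.89, 9.06 and 8.87 log2 at high shortening, against 8.41, 8.40 and 8.09 log2 at low shortening, a difference of 0.64 (95% interval 0.36 to 0.92). The nearest arrays were 0.46 log2 apart, but the mean of its 2 probe sets differed by only 0.27. Flvcr1, a heme and choline transporter, had 8.66, 8.72 and 8.84 log2 at high shortening, against 9.68, 9.39 and 9.14 log2 at low shortening, a difference of -0.67 (95% interval -0.98 to -0.35). Mrpl57, a protein of the mitochondrial ribosome, had 8.61, 8.61 and 8.58 log2 at high shortening, against 8.19, 8.24 and 8.20 log2 at low shortening, a difference of 0.39 (95% interval 0.20 to 0.58). The arrays of each group were tight, and the difference was 0.40 with the index. The others were Usp54 (-0.61), Fnbp1 (-0.58), Gmds (-0.46), Kif3a (-0.67), Veph1 (0.52), Zfp111 (0.55) and Spmip11 (0.48). Spmip11 was not measured, with a mean of 4.50 log2 at high shortening and 4.02 log2 at low shortening. For Fnbp1 only 3 of 6 probe sets had the same sign, and their mean differed by -0.01.

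The largest differences of all measured, non-overlapping probe sets belonged to probe sets without a symbol, chosen here after their values were seen. Probe set 1375108_at had 13.48, 12.79 and 12.92 log2 at high shortening, against 12.73, 10.82 and 10.50 log2 at low shortening, a difference of 1.71 (95% interval 0.76 to 2.66). Probe set 1397999_at had 6.24, 6.35 and 6.62 log2 at high shortening, against 6.73, 8.39 and 8.94 log2 at low shortening, a difference of -1.62 (95% interval -2.56 to -0.67). Both intervals take 1 spread over all 4 groups, while the SD was 1.20 and 1.15 at low shortening, against 0.37 and 0.20 at high shortening. In both probe sets, low shortening replicates 2 and 3 stood apart and replicate 1 lay close to the high shortening arrays, the order of the 3' to 5' index. With the index as a covariate the differences were 0.49 and -0.53. Probe set 1396539_at, also unnamed and among the 2 smallest p-values, behaved otherwise: it had 6.89, 7.32 and 7.33 log2 at high shortening, against 8.14, 7.88 and 8.06 log2 at low shortening, and its difference of -0.85 was -0.82 with the index.

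Gene lists were described by counts and medians, beside a median of 0.02 log2 over all 14217 genes, of which 7799 had a positive difference. None of the list genes passed the adjusted test. In the heat shock and protein folding list, 23 of 29 genes were lower at high shortening, 5 of them without overlap and 0 higher without overlap, against 3.58% and 4.84% of all genes. The list median was -0.04, so the differences lay in a few chaperones. Besides Hspa1a these were Hsp90ab1, the constitutive Hsp90, with 10.99, 10.36 and 10.27 log2 at high shortening, against 11.01, 11.24 and 11.25 log2 at low shortening. Hsph1, the Hsp110 exchange factor of Hsp70, had 11.98, 11.83 and 11.58 log2 at high shortening, against 12.30, 12.20 and 12.16 log2 at low shortening. Hspb3, a small heat shock protein of muscle, differed by -0.39, and Dnajb1, an Hsp40 partner of Hsp70 named here after its values were seen, by -0.31. With the index as a covariate these 4 differences were -0.78, -0.61, -0.63 and -0.65. Without low shortening replicate 1 they were -0.70, -0.39, -0.28 and -0.14, and the means over all probe sets of Hsp90ab1 and Dnajb1 differed by -0.37 and -0.18. Hspb7 (0.37, and 0.02 with the index), a small heat shock protein of heart, and Bag3 (-0.08), a co-chaperone of Hsp70, overlapped between the groups.

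The promoters of 2 of these chaperones are shown because they hold the paired form of the heat shock element, the sequence bound by heat shock factors. The sequences are RefSeq windows of assembly GRCr8, 250 bases before to 50 after the gene start, in lower case with matches to GAANNTTC or TTCNNGAA, searched on both strands, in capitals. The first is Hsph1 at chr12:10427118-10427417 on the plus strand, and the second Dnajb1 at chr19:41431092-41431391 on the minus strand.
Hsph1: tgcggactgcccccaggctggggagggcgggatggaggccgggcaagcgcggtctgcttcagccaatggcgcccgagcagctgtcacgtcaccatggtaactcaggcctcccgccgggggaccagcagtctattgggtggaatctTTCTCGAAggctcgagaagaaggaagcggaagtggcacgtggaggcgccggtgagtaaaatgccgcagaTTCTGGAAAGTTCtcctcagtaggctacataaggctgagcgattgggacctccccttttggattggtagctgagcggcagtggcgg
Dnajb1: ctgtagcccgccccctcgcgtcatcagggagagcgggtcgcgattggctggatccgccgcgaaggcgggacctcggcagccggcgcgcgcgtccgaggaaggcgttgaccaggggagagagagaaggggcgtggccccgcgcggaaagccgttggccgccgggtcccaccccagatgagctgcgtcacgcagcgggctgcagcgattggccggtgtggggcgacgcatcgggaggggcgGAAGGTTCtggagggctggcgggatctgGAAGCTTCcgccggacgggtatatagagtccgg
Hsph1 held 3 matches, of which adjoining ones form 1 match to the longer form of 3 units, and Dnajb1 held 2. The paired motif was found in 13 of the 25 list genes with a promoter in the table and in 15.4% of all 27457 promoters, and the longer motif, a pair followed by NN and 1 more GAA or TTC unit in the alternating orientation, in 5 of 25 and in 0.736%. The windows of Hspa1a, Hsp90ab1 and Hspb3 held none. Most list genes with the paired motif overlapped between the groups. Among them, picked after their values were seen, were Chordc1 with 4 matches (-0.20) and Dnaja1 with 3 (-0.02). Hspb1 (-0.04) and Hspb6 (0.07), with 2 matches each, were others. A link between the motif and the differences was not tested. With 1 window per gene and exact letters, elements outside the window or of other letters were not counted. The mitochondrial chaperonins Hspd1 and Hspe1, also picked after their values were seen, differed by -0.02 each. Their windows overlap on opposite strands and held the same 3 matches, which count for each of them in the list counts above.

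Immediate early transcription factors, which are induced within minutes of a stimulus, were lower at high shortening for 20 of 27 genes, with a median of -0.14, or -0.06 without low shortening replicate 1 and also -0.06 with the mean of each gene's probe sets. Csrnp1 (-0.52, and -0.33 with the index) and Klf6 (-0.43, and -0.28) were lower without overlap and 0 of the 27 higher without overlap, against 3.58% and 4.84% of all genes. Each gene's deviation from its mean over the 6 arrays, averaged over the list, was -0.09 on all 3 high shortening arrays and 0.19, -0.14 and 0.23 at low shortening, so low shortening replicate 2 lay below the high shortening arrays. Atf3, a stress-induced factor of the CREB family, had 9.85, 10.53 and 10.98 log2 at high shortening, against 10.87, 11.71 and 11.43 log2 at low shortening. Fos, a subunit of AP-1, had 10.87, 11.59 and 11.96 log2 at high shortening, against 11.79, 12.50 and 12.27 log2 at low shortening. Both overlapped, since high shortening replicate 3 lay above low shortening replicate 1, and they differed by -0.89 and -0.72, or -0.38 and -0.24 with the index. A second probe set of Fos differed by 0.16, and the mean of both by -0.28. Egr1 differed by -0.35.

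NF-kB response genes were higher for 23 of 26, with a median of 0.17 that was 0.09 without low shortening replicate 2, and 3 of 26 were higher without overlap, against 4.84% of all genes. Each gene's deviation from its mean over the 6 arrays, averaged over the list, was 0.07 to 0.15 at high shortening and -0.15, -0.32 and 0.13 at low shortening, so the groups overlapped through low shortening replicate 3. Tnfaip6, a secreted hyaluronan-binding protein, had 10.01, 10.19 and 9.92 log2 at high shortening, against 9.88, 8.75 and 9.44 log2 at low shortening. Lcn2, an iron-siderophore carrier released by stressed tissue and neutrophils, had 10.88, 10.09 and 10.21 log2 at high shortening, against 9.45, 9.76 and 10.08 log2 at low shortening. Nfkbia, the inhibitor that NF-kB itself induces, had 9.79, 9.68 and 9.57 log2 at high shortening, against 9.55, 8.96 and 9.27 log2 at low shortening. Low shortening replicate 2 was the lowest array for Tnfaip6 and Nfkbia, and replicate 1 for Lcn2. With the index as a covariate the differences were 0.25, 0.73 and 0.13. Of the 7 neutrophil markers only Lcn2 was measured, and S100a8, S100a9, Cxcr2 and Csf3r were not.

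Cytokines and chemokines were higher for 27 of 38, with a median of 0.13 that was 0.04 without low shortening replicate 2 and 0.07 with the mean of each gene's probe sets. The 2 without overlap, Il18 and Spp1, were higher and dim, against 4.84% of all genes higher without overlap. Il6 had 12.57, 12.35 and 11.91 log2 at high shortening, against 12.53, 10.83 and 11.72 log2 at low shortening, and Ccl2, a monocyte attractant, had 13.05, 12.85 and 12.79 log2 against 12.95, 12.46 and 12.69 log2. Both overlapped, and their differences of 0.58 and 0.20 were -0.15 and -0.09 with the index. The interferon and antigen presentation list was balanced, with 16 of 29 higher and a median of 0.02. In it RT1-Da, an MHC class II chain, differed by 0.54 (0.87 with the index), Irf1 by 0.28 (0.42 with the index) and Mx2, an interferon-induced GTPase that was not measured, by -0.60, all without overlap. That made 2 of the 29 genes higher and 1 lower without overlap, against 4.84% and 3.58% of all genes.

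**Figure D4:**
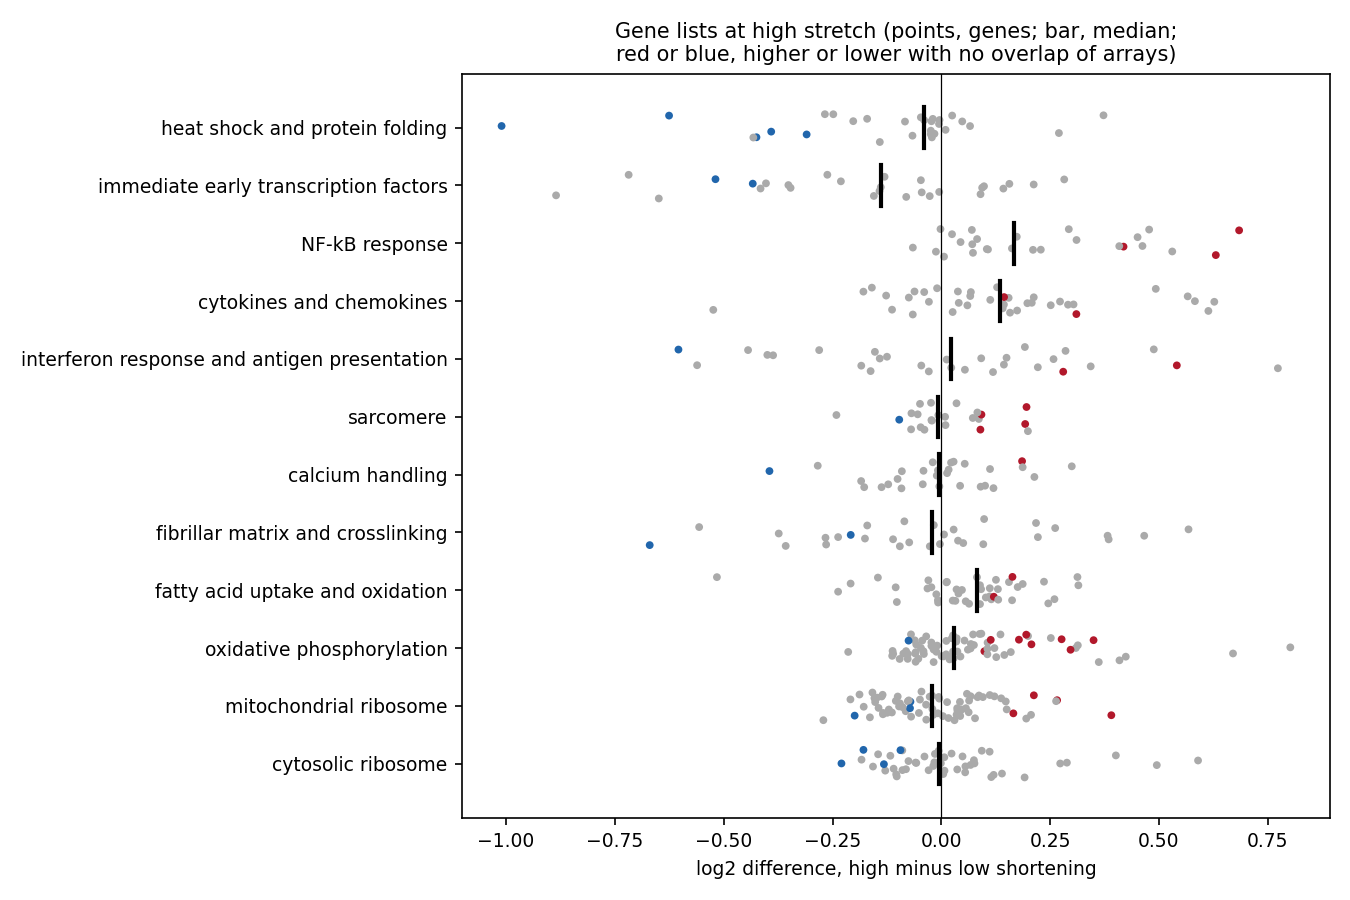
Each point is a gene of 1 of 12 lists, placed by its log2 difference, high minus low shortening, at high stretch. Black bars are list medians, which run from -0.14 for immediate early factors to 0.17 for the NF-kB response, and red or blue marks genes higher or lower without overlap, such as the 5 lower heat shock genes.

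Median differences were small in the lists of energy metabolism. In oxidative phosphorylation 50 of 80 genes were higher, with a median of 0.03, and 8 were higher and 1 lower without overlap, against 4.84% and 3.58% of all genes. Sdhb, the iron-sulfur subunit of complex II, had 12.50, 12.43 and 12.49 log2 at high shortening, against 12.28, 12.13 and 12.18 log2 at low shortening. Ndufs3, a core subunit of complex I, had 11.18, 11.15 and 11.20 log2 at high shortening, against 10.91, 10.91 and 10.82 log2 at low shortening. These differences of 0.28 (95% interval 0.08 to 0.47) and 0.30 (95% interval 0.09 to 0.51) were under 1.5-fold over their whole intervals. Sdhc (0.21) and Atp5pd (0.35, and 0.14 with the index), a subunit of ATP synthase, were also higher, and Ndufb2, named after its value was seen, was the 1 lower gene. Of 43 fatty acid genes 31 were higher, 2 without overlap, with a median of 0.08. Of 73 genes of the mitochondrial ribosome 4 were higher without overlap, Mrps34 (0.27, and 0.09 with the index) among them, and 3 lower, with a median of -0.02; these counts are near the shares of all genes.

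Contractile genes and classic load markers had small differences, some with wide intervals. Myh6 had 13.90, 14.02 and 13.95 log2 at high shortening, against 13.92, 13.97 and 13.99 log2 at low shortening, a difference of -0.01 (95% interval -0.18 to 0.17). Ankrd1, a titin-bound stretch-responsive protein, had 13.75, 13.84 and 13.77 log2 at high shortening, against 13.78, 13.74 and 13.82 log2 at low shortening, a difference of 0.01 (95% interval -0.17 to 0.19). For these 2 the interval stayed under 1.5-fold. Tnni3, cardiac troponin I, had 13.21, 13.22 and 13.22 log2 at high shortening, against 13.05, 12.98 and 13.04 log2 at low shortening; the 3 arrays of each group were tight, and the difference was 0.20. Myl3 (0.09) and Tpm4 (0.19) were higher and Mybpc3 (-0.10) lower without overlap. The nearest arrays were only 3.1e-05 log2 apart for Myl3 and 0.0008 log2 for Mybpc3. Of the 23 sarcomere genes 4 were higher and 1 lower without overlap, against 4.84% and 3.58% of all genes. Nppa, atrial natriuretic peptide, differed by -0.20 (95% interval -0.47 to 0.07) without overlap, and Nppb, its B-type relative, by -0.14 (95% interval -0.65 to 0.37) with overlap. Myh7 (-0.93 to 0.94) and Acta1 (-0.63 to 0.70), the slow myosin and skeletal actin of the fetal programme, had wide 95% intervals around differences of 0.01 and 0.03.

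In calcium handling 14 of 29 genes were higher, with a median of -0.01, and among ion channels and gap junctions 20 of 26, with a median of 0.05 that was -0.01 without high shortening replicate 1. In each list 1 gene was lower without overlap, and 1 calcium handling gene was higher, against 3.58% and 4.84% of all genes. Atp2a2, the SERCA pump, differed by 0.05 (95% interval -0.13 to 0.24), though 4 of its 5 probe sets went the other way and their mean was -0.14. Pln, its inhibitor phospholamban, differed by 0.21 (95% interval -0.23 to 0.66), and Gja1, connexin 43, by -0.001 (95% interval -0.56 to 0.56, and -0.31 to 0.35 leaving out single arrays). Rcan1, the calcineurin regulator that calcineurin induces, had 11.86, 12.01 and 11.92 log2 at high shortening, against 11.85, 11.62 and 11.77 log2 at low shortening, a difference of 0.19 without overlap. Gja5, connexin 40, was dimmer and differed by -0.58 without overlap, with 1 of its 2 probe sets of that sign.

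Among 25 cardiac transcription factors 4 were lower without overlap and 0 higher, against 3.58% and 4.84% of all genes. Of the 25, however, 14 were higher, and the median was 0.03, or -0.06 without low shortening replicate 1. Nfatc1, which calcineurin sends to the nucleus, had 7.27, 7.28 and 7.34 log2 at high shortening, against 7.64, 7.43 and 8.15 log2 at low shortening. Tead1, the DNA-binding partner of YAP and TAZ, had 11.41, 11.58 and 11.55 log2 at high shortening, against 11.61, 11.93 and 12.005 log2 at low shortening. Srf (-0.29) and Wwtr1 (-0.18), which encodes TAZ, were the other 2, and with the index as a covariate the differences of Tead1 and Nfatc1 were -0.06 and -0.30. The YAP targets Ccn1 (-0.50) and Ccn2 (-0.43) overlapped. Ccn2 varied most, with 10.79, 9.58 and 9.42 log2 at high shortening, against 11.01, 8.33 and 11.72 log2 at low shortening.

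In the matrix lists Fbn1, fibrillin of elastic microfibrils, had 6.87, 7.30 and 7.54 log2 at high shortening, against 7.74, 8.12 and 7.86 log2 at low shortening, a difference of -0.67 (-0.44 with the index), and Plod1, a collagen lysyl hydroxylase, differed by -0.21 (-0.08 with the index), both without overlap. Of the 30 fibrillar matrix genes these 2 were lower and 0 higher without overlap, against 3.58% and 4.84% of all genes. Mmp3, stromelysin, had 11.94, 9.63 and 10.41 log2 at high shortening, against 11.77, 8.45 and 9.02 log2 at low shortening, so replicate 1 was the highest of each group and the difference of 0.91 had an interval of -0.78 to 2.61. Pdgfrb, a receptor of pericytes and fibroblasts, differed by -0.58 without overlap, and by -0.22 with the index. It belongs to the smooth muscle and pericyte list, in which 9 of 14 genes were higher, with a median of 0.01. Of those 14, 3 were lower without overlap and 0 higher, against 3.58% and 4.84% of all genes. Besides Pdgfrb these were Cnn1 and Lmod1, which were not measured. In survival and turnover lists Bnip3l, a mitophagy receptor, differed by 0.37, Atg12 by 0.26, Casp4 by 0.32, Fadd by -0.50, Bad by -0.14, Lamp2 by -0.21 and Foxo3 by -0.20, all without overlap. With the index Fadd, Lamp2 and Foxo3 differed by -0.31, -0.08 and -0.09. Of 27 atrophy and autophagy genes 3 were higher and 2 lower without overlap, and of 27 apoptosis genes 2 and 2. The shares of all genes were 4.84% and 3.58%. Clock (-0.25) and Npas2 (-0.19), partners of Bmal1, and Nfe2l2 (0.17), the factor NRF2, did not overlap either. With the index Npas2 and Nfe2l2 differed by -0.06 and 0.10. The macrophage markers Fcer1g (0.28, and 0.13 with the index) and Ms4a7 (0.20, and 0.31 with the index) were also higher without overlap. They were 2 of the 17 macrophage markers, against 4.84% of all genes. Of those 17, 10 were higher and 7 lower, with a median of 0.04. Hprt1, a housekeeping gene, differed by -0.04 (95% interval -0.28 to 0.19).

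Whether shortening acted alike at high and low stretch was tested by the interaction, (high minus low shortening at high stretch) minus the same at low stretch. Limma called 6323 of 31042 probe sets (20.4%) at an adjusted p under 0.05, 1042 with the index as a covariate and 2150 with weight. The low stretch low shortening arrays had the lowest index of the series, 1.13 to 1.69, against 2.56 to 4.33 on the other arrays. Their animals also had the highest weights, 305 to 318, against 267 to 297. Neither range met that of the other arrays, so the covariates cannot separate index and weight from this group. Its arrays also stood apart over all probe sets, with correlations of 0.951 to 0.962 with arrays of the other groups. Among arrays of the other 3 groups they were 0.984 to 0.996. A called interaction can thus rest on the low stretch low shortening group alone. The part of index and weight in these calls was not tested. Of the 93 genes described here, many of them picked for their difference at high stretch, which is 1 part of the interaction, 41 passed, 25 with a positive and 16 with a negative interaction, and 10 passed with the index. Hspb7 differed by 0.37 at high stretch and -2.53 at low stretch, an interaction of 2.90 (limma, adjusted p = 5.38e-06, and 0.0344 with the index). Its mean was 13.09 log2 in the low stretch low shortening group and 10.44 to 10.81 log2 in the other 3 groups. Flvcr1 differed by -0.67 at high stretch and 0.78 at low stretch, an interaction of -1.45 (adjusted p = 0.000387 by limma, and 0.0330 with the index). For Hspa1a the 2 differences were -1.01 and 0.76, and the interaction of -1.77 had a limma adjusted p of 0.0316, or 0.384 with the index.

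**Figure D5:**
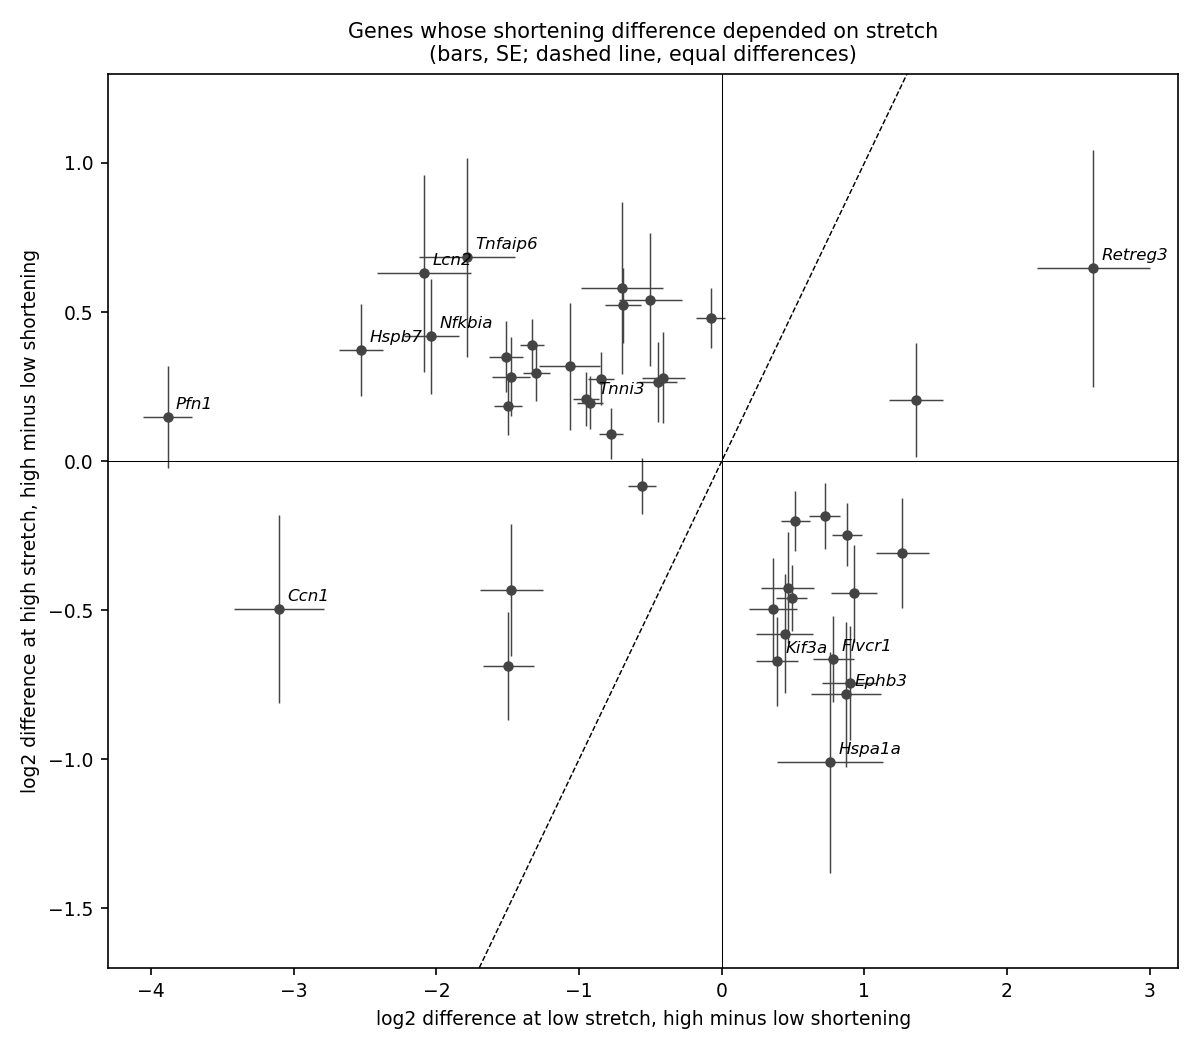
Each point is 1 of the 41 genes of the text with a called interaction, placed by its log2 difference, high minus low shortening, at low stretch (horizontal) and at high stretch (vertical), with SE bars and different scales on the 2 axes. Differences at high stretch stay between -1.01 and 0.68, and those at low stretch between -3.89 and 2.61.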

How the data were processed

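RNA of 12 cultured papillary muscles was hybridized to Affymetrix arrays from 100 ng of total RNA per muscle. The deposited tables hold log2 intensities, normalized by the authors with RMA per the submitters' processing notes (version not given in the sources used here), and a filtered subset whose header names an intensity of 50. Of 31042 probe sets that are not controls, 20826 carried 1 symbol, 436 several and 9780 none in the platform annotation; 20758 were matched to the RefSeq table of GRCr8 by gene number.

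Limma 3.58.1 in R 4.3.3 was fitted with 1 mean per group over 12 arrays and moderated by empirical Bayes, with Benjamini-Hochberg adjustment over all 31042 probe sets, a threshold of 0.05 and 95% intervals from the moderated spread. All 4 groups share 1 estimate of the spread with 8 residual degrees of freedom, so the intervals also rest on arrays outside the comparison. The number of arrays limits the precision. Arrays were single muscles of separate animals.

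Genes were named by rule: the 12 largest differences each way among measured genes without overlap, the 10 smallest p-values, up to 4 genes per list without overlap (or the 2 largest differences), and a followed set. The comparison, members and lists were chosen with earlier results of these data known. Same-numbered arrays of the 2 groups had residual correlations of 0.18, 0.08 and -0.05, so the numbers were not treated as pairs. Alternatives were other arrays, filters, features, normalization, priors, weights, covariates and the Local Pooled Error test, written from its description. The limma step was tested on simulated data. Exact tests used scipy 1.17.1 in Python 3.11.15, and figures matplotlib 3.10.9.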

Additional observations from a re-analysis of the deposited data

Results flagged for a closer look

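The difference between high and low shortening was not the same at high and at low stretch for 41 of the 93 genes described, by limma's test of the interaction at an adjusted p under 0.05, against 20.4% of all probe sets. Many of the 93 were picked for their difference at high stretch, which is 1 part of the interaction, so the 2 shares are not comparable. Values are interactions in log2, (high minus low shortening at high stretch) minus (high minus low shortening at low stretch).

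A positive interaction was found for 25 genes: Pfn1 4.03, Hspb7 2.90, Lcn2 2.72, Ccn1 2.61, Tnfaip6 2.47, Nfkbia 2.45, Atp5pd 1.86, Fcer1g 1.76, Mrpl57 1.72, Rcan1 1.68, Ndufs3 1.60, Casp4 1.38, Itgbl1 1.28, Veph1 1.21, Sdhc 1.16, Sdhb 1.12, Tnni3 1.12, Klf6 1.04, RT1-Da 1.04, Myl3 0.87, C8h11orf52 0.81, Mrps34 0.71, Irf1 0.69, Spmip11 0.56 and Bag3 0.48.

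A negative interaction was found for 16 genes: Retreg3 -1.96, Hspa1a -1.77, Ephb3 -1.65, Piga -1.64, Dnajb1 -1.58, Flvcr1 -1.45, Nfatc1 -1.37, Tbp -1.16, Clock -1.12, Kif3a -1.06, Gja5 -1.02, Gmds -0.95, Wwtr1 -0.91, Hsph1 -0.89, Fadd -0.86 and Foxo3 -0.71.

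Pfn1, profilin, had the most positive of these values, with a difference of 0.15 at high stretch and -3.89 at low stretch, where its level was 6.59 ± 0.13 at high shortening and 10.48 ± 0.25 at low shortening (SD, n = 3 each). Of the 41 genes, 10 passed once the index entered the fit and 19 once weight did.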

How the results depend on the processing

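Calls of shortening at high stretch stayed at 0 under every setting but 3: raising values under log2(50) to it gave 1 (Sertad4), leaving out single arrays 0 to 3 (3 without low shortening replicate 1: 1375108_at, 1397999_at and 1398563_at), and the Local Pooled Error test 46. No paired analysis changed a call: with the replicate block there were 0 calls, and 1519 probe sets at an unadjusted p under 0.05. The 2768 probe sets without overlap became 1516 above the 40th percentile of intensity, 1350 in the filtered table, 1233 with raised values, 1197 with 1 probe set per gene, 1251 with gene means, 153 at 1.5-fold or more, and 5085 to 7383 leaving out an array. The 6323 interaction calls became 3552 with 1 probe set per gene, 3357 with gene means, 1042 with the index and 2150 with weight as a covariate. The 72 probe sets higher by 1.5-fold became 38 with raised values, 36 with 1 probe set per gene, 23 with gene means, 536, 139 and 204 with index, age and weight, and 97 to 256 leaving out an array. The 298 lower became 192 with raised values, 87 with 1 probe set per gene, 58 with gene means, 435, 480 and 561 with index, age and weight, and 272 to 721 leaving out an array. The cause was not tested, except that fewer features are tested with 1 value per gene or a filter.

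Signs turned with the index for Bag3 0.035, Il6 -0.15, Ccl2 -0.0859, Mmp3 -1.31, Ccn1 0.34, Myh6 0.0612, Myh7 -1.14, Acta1 -0.38, Gja1 0.56 and Pfn1 -0.15; with weight for Tpm4 -0.0335, Myh6 0.000873, Myh7 -0.0587, Acta1 -0.0231 and Ankrd1 -0.00214; with array weights for Myh6 0.00871, Myh7 -0.15, Acta1 -0.0227 and Hprt1 0.00321; with gene means for Atp2a2 -0.14, Gja1 0.00698 and Foxo3 0.0131; and with repeated quantile normalization for Ankrd1 -0.00589. Leaving out single arrays gave ranges across 0 for Acta1 -0.29 to 0.31, Ankrd1 -0.0158 to 0.0289, Atp2a2 -0.00606 to 0.0869, Ccn2 -1.44 to 0.26, Gja1 -0.31 to 0.35, Hprt1 -0.0976 to 0.0251, Myh6 -0.0371 to 0.0224, Myh7 -0.59 to 0.39, Nppb -0.37 to 0.0614, Pln -0.054 to 0.37.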
